A study of Homo sapiens with 3 samples.

Results

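TFIIH is a multi-subunit factor with roles in transcription, where it melts promoters so that RNA polymerase II can start, and in nucleotide excision repair, where it unwinds DNA around a lesion. Here the starts of 9 genes that encode its subunits were examined for binding of 2 of those subunits, the helicases XPB and XPD, in the human fibrosarcoma line HT1080. The genes were ERCC3 and ERCC2, which encode XPB and XPD themselves, GTF2H1, GTF2H3, GTF2H4 and GTF2H5, which encode other core subunits, and CDK7, CCNH and MNAT1, which encode the kinase module. The core subunit gene GTF2H2 was not in the list, so the set is not complete. A gene was counted as occupied in a list when a listed summit, the highest point of a peak, lay within 2 kb of the gene start on the hg19 build. The starts came with the gene list and not from the deposited files. They could not be checked against an hg19 annotation, so each distance holds only for the start given. An XPB summit was found at 5 of the 9 genes and an XPD summit at 4, out of 21555 XPB and 14570 XPD peaks in all.

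The data were ChIP-seq, in which DNA crosslinked to a protein is recovered with an antibody and sequenced. The series comprised 3 libraries made from a single batch of crosslinked chromatin of HT1080 cells: XPB recovered with a rabbit polyclonal anti-XPB antibody, XPD recovered with a rabbit polyclonal anti-XPD antibody, and input DNA that had not been enriched. The labels name no treatment, and nuclei were crosslinked with 5% formaldehyde for every library. The protocol shared by the samples describes an antibody to another protein, CSB, and the antibody fields of the individual samples were followed instead. With 1 library per antibody there is no replicate check and no test between the antibodies. The number of reads behind each list is unknown, so heights are set against the rest of their own list. No values of the input were used here, so the sites are not compared with unenriched chromatin.

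The helicases XPB and XPD sit in the core of TFIIH, where XPB acts as a DNA translocase in promoter opening and XPD as the helicase needed for repair. The GTF2H subunits hold the core together and control the helicases. The kinase module, made of CDK7, cyclin H and MAT1, phosphorylates the tail of RNA polymerase II and is tethered to the core through MAT1 and XPD. A ChIP of XPB or XPD at these genes therefore asks whether the complex was found at the genes for its own parts.

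XPB and XPD summits occurred together at 4 genes, GTF2H1, GTF2H4, CCNH and MNAT1, and GTF2H3 had an XPB summit without an XPD summit. With only peaks of a score of at least 300 kept, the 5 genes with an XPB summit stayed. Those with an XPD summit and those with both fell from 4 to 1, MNAT1. A fixed score cuts the lists at different places. The CCNH XPB peak, at 86.1% of its list by score (100% is the highest), was kept. The GTF2H1 XPD peak, at 86.7% of its list, was not. No gene had an XPD summit alone. The remaining 4 genes, ERCC3, ERCC2, GTF2H5 and CDK7, had neither, which means only that no peak there reached the lowest listed score of 150. By role, 0 of 2 helicase genes, 3 of 4 other core genes and 2 of 3 kinase genes had an XPB summit. The same counts for XPD were 0 of 2, 2 of 4 and 2 of 3. With so few genes per role these shares are not told apart. The exact Clopper-Pearson 95% intervals for XPB were 0 to 84.2% for the helicase genes and 19.4 to 99.4% for the other core genes. For the kinase genes the interval was 9.43 to 99.2%. These intervals, and those below, treat the genes as independent draws, which the genes of a fixed list are not, so they are descriptive only. As a share of the 9 genes, XPB reached 55.6% (exact Clopper-Pearson 95% interval 21.2 to 86.3) and XPD 44.4% (13.7 to 78.8). By comparison, of the genome between the first and last listed peak of each chromosome, 2.71% lay within 2 kb of an XPB summit, 1.86% within 2 kb of an XPD summit, and 0.755% within 2 kb of both. That background holds all kinds of sequence, and the starts of other genes on this build were not used here, so the counts do not show that TFIIH genes differ from other genes.

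**Figure D1:**
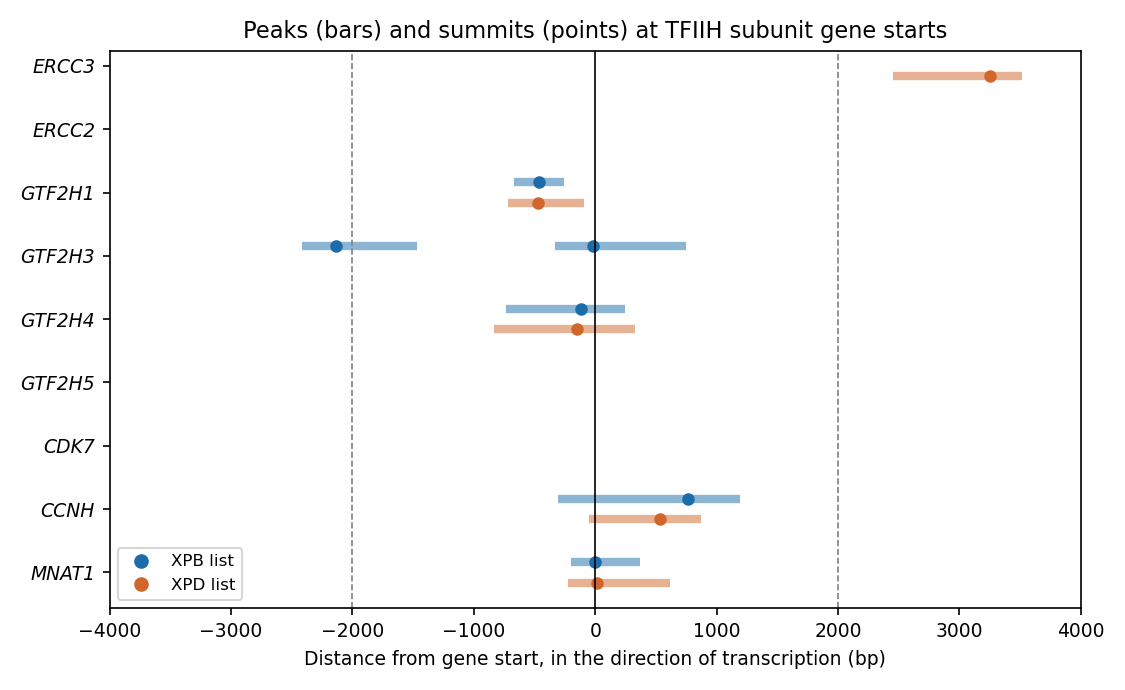
Peak intervals (bars) and summits (points) of the XPB (blue) and XPD (orange) lists around the starts of the 9 genes; the x axis is the distance from the gene start in bp, positive in the direction of transcription, and dashed lines mark 2 kb. Summits of both lists lie at GTF2H1, GTF2H4, CCNH and MNAT1, XPB alone lies at GTF2H3, and the XPD peak near ERCC3 has its summit 3252 bp downstream, outside the dashed lines.

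The promoter sequences are shown for 5 genes that carry these results: MNAT1, with the tallest summits; GTF2H1, with the next tallest; GTF2H3, occupied by XPB alone; CCNH, with the summits farthest from the start; and ERCC3, the gene of XPB, with no summit in the window. They are RefSeq sequences of the GRCh38.p14 build and are read 5′ to 3′ on the strand of the gene, ending at the base before the RefSeq start. The positions of the peaks are on hg19, so the places of the summits are not marked on them. The stretches are chr14:60734511-60734760 on the plus strand for MNAT1, chr11:18322317-18322566 on the plus strand for GTF2H1, chr12:123633687-123633828 on the plus strand for GTF2H3, chr5:87412931-87413180 on the minus strand for CCNH and chr2:127294145-127294394 on the minus strand for ERCC3. Each is 250 bases long except that of GTF2H3, for which the 142 bases between its start and that of the oppositely directed gene EIF2B1 are shown. Capitals mark matches, on either strand, to the GC box (GGGCGG), the ETS motif (CCGGAAGT) or the G-quadruplex pattern, 4 runs of at least 3 G joined by loops of 1 to 7 bases.
MNAT1: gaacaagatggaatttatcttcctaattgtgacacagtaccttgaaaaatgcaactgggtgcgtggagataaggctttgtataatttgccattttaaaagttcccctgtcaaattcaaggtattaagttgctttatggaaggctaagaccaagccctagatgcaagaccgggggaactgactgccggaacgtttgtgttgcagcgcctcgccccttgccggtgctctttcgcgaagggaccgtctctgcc
GTF2H1: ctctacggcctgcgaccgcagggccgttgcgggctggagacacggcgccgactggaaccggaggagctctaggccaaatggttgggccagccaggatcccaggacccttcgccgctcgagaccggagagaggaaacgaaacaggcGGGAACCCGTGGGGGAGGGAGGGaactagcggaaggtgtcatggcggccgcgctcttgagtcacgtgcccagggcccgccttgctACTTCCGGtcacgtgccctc
GTF2H3: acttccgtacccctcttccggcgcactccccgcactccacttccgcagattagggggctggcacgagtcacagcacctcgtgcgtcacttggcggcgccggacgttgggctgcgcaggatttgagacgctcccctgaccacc
CCNH: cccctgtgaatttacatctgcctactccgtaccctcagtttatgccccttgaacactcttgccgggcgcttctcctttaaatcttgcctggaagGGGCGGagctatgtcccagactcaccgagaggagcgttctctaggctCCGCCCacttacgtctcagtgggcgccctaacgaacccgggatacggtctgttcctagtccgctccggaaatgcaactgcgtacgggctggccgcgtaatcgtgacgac
ERCC3: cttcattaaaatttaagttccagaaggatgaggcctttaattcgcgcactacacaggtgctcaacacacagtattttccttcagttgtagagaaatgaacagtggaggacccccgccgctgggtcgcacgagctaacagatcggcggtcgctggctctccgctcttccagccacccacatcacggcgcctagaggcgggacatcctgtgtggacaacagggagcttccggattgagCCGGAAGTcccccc

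MNAT1 encodes MAT1, the assembly factor that joins CDK7 to cyclin H and ties the kinase module to the core. It had the strongest sites of the set in both lists. The gene starts at chromosome 14 position 61201459 on the plus strand. The XPB summit lay at 61201457, 2 bp upstream, in a peak from 61201260 to 61201832. Its height, the number of fragments piled up there, was 45 (exact Poisson 95% interval 32.8 to 60.2). Its peak score, a log-scale form of the p-value given by the peak caller that rises as that p-value falls, was 928.7, rank 161 of 21555. The XPD summit lay at 61201472, 13 bp downstream, in a peak from 61201239 to 61202074, with 32 fragments (21.9 to 45.2) and a score of 488.1, rank 417 of 14570. These intervals, and all others given for heights or their ratios, cover counting error only. PCR copies are not independent molecules, so the intervals can be too narrow even for that. Only 96 XPB summits and 226 XPD summits in the genome were as tall as these or taller. The XPB peak lay wholly within the XPD peak and overlapped it for 573 bp, its full width.

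GTF2H1 encodes a core subunit that contacts activators and repair factors through its pleckstrin homology domain. Its start is at chromosome 11 position 18344106 on the plus strand. The XPB summit was at 18343646, 460 bp upstream, with 26 fragments (17.0 to 38.1) and a score of 497.2, rank 778. The XPD summit was at 18343635, 471 bp upstream, with 25 fragments (16.2 to 36.9) and a score of 287.5, rank 1946. Unlike the other occupied genes, neither peak reached the gene start. The XPB peak, from 18343433 to 18343852, ended 254 bp short of it, and the XPD peak, from 18343391 to 18344011, ended 95 bp short. In RefSeq the HPS5 gene starts within 1 kb upstream of GTF2H1 on the opposite strand, so an upstream summit here cannot be assigned to a single gene of the pair.

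GTF2H4, which encodes the core subunit that binds XPB and stimulates its ATPase, had summits of both lists close to its start at chromosome 6 position 30875977 on the plus strand. The XPB summit was 118 bp upstream, at 30875859, in a peak from 30875243 to 30876222. It had 15 fragments (8.40 to 24.7) and a score of 330.3. The XPD summit was 154 bp upstream, at 30875823, in a peak from 30875144 to 30876307, with 10 fragments (4.80 to 18.4) and a score of 273.8. For XPD the height and the score placed this peak differently. Only 20.8% of XPD summits were as low as 10 fragments or lower, while 84.7% of XPD peaks scored as low or lower.

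CCNH encodes cyclin H, the regulatory partner of CDK7, and runs on the minus strand from chromosome 5 position 86708850. Its summits were the farthest from a start among the occupied genes, and both lay on the transcribed side. The XPB summit, at 86708082, was 768 bp downstream, with 15 fragments (8.40 to 24.7) and a score of 303.1 in a peak of 1501 bp from 86707659 to 86709159. The XPD summit, at 86708320, was 530 bp downstream, with 9 fragments (4.12 to 17.1) and a score of 154.2 in a peak from 86707980 to 86708900. Both peaks still covered the gene start. The XPD peak was close to the lowest score listed, 150, and only 8.65% of XPD peaks scored as low or lower. The printed CCNH sequence ends at the RefSeq start on the other build, which was not matched to the start used for these distances. Its place relative to these summits is therefore not given. RefSeq places the uncharacterised gene LOC105379066 within 1 kb upstream on the opposite strand.

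GTF2H3 encodes a zinc-binding core subunit that pairs with GTF2H2, the activator of XPD. Its start, at chromosome 12 position 124118286 on the plus strand, had an XPB summit 17 bp upstream, at 124118269, in a peak from 124117956 to 124119034. This summit had 18 fragments (10.7 to 28.4) and a score of 346.3, rank 2140. No XPD peak overlapped it, and the nearest XPD summit was 34574 bp downstream. Among the 1001 XPB peaks closest to it in score, 63.0% overlapped an XPD peak and the others, like this one, did not. A further XPB summit, with 10 fragments and a score of 153.0, lay 2134 bp upstream, just beyond the 2 kb limit. EIF2B1, a subunit gene of a translation initiation factor, starts within 1 kb upstream on the opposite strand. The summit 17 bp upstream therefore cannot be assigned to a single gene of the pair.

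The gene of XPB had no XPB summit nearby. ERCC3 starts at chromosome 2 position 128051752 on the minus strand, and the nearest XPB summit was 50776 bp upstream, the largest distance of any gene in either list. The nearest XPD summit was 3252 bp downstream, at 128048500, with 11 fragments and a score of 150.1, rank 14533 of 14570. This peak ran from 128048234 to 128049299, did not overlap an XPB peak and was almost at the bottom of the list.

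ERCC2, the gene of XPD, starts at chromosome 19 position 45873845 on the minus strand and likewise had no summit in the window. The nearest XPD summit was 8618 bp downstream, with 8 fragments and a score of 176.6. The nearest XPB summit was 7963 bp upstream, with 11 fragments and a score of 299.0. That XPB peak overlapped the second nearest XPD peak, 9589 bp upstream, by 27 bp.

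GTF2H5 encodes the smallest core subunit, which stabilises TFIIH and is mutated in a form of trichothiodystrophy. Both lists had their nearest summit at the same place upstream of its start, chromosome 6 position 158589379 on the plus strand. The XPB summit was 7186 bp upstream, with 13 fragments and a score of 193.6. The XPD summit was 7130 bp upstream, with 12 fragments and a score of 159.3. The peaks overlapped by 341 bp and the summits were 56 bp apart. SERAC1 starts within 1 kb upstream of GTF2H5 on the opposite strand in RefSeq.

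CDK7, the kinase itself, starts at chromosome 5 position 68530622 on the plus strand. Its nearest XPB summit was 23716 bp upstream, with 9 fragments and a score of 152.1, and its nearest XPD summit was 16905 bp upstream, with 17 fragments and a score of 252.9. These peaks did not overlap any peak of the other list. Within the kinase module, CDK7 was therefore the gene without a summit in the window, and MNAT1 and CCNH had summits of both lists.

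**Figure D2:**
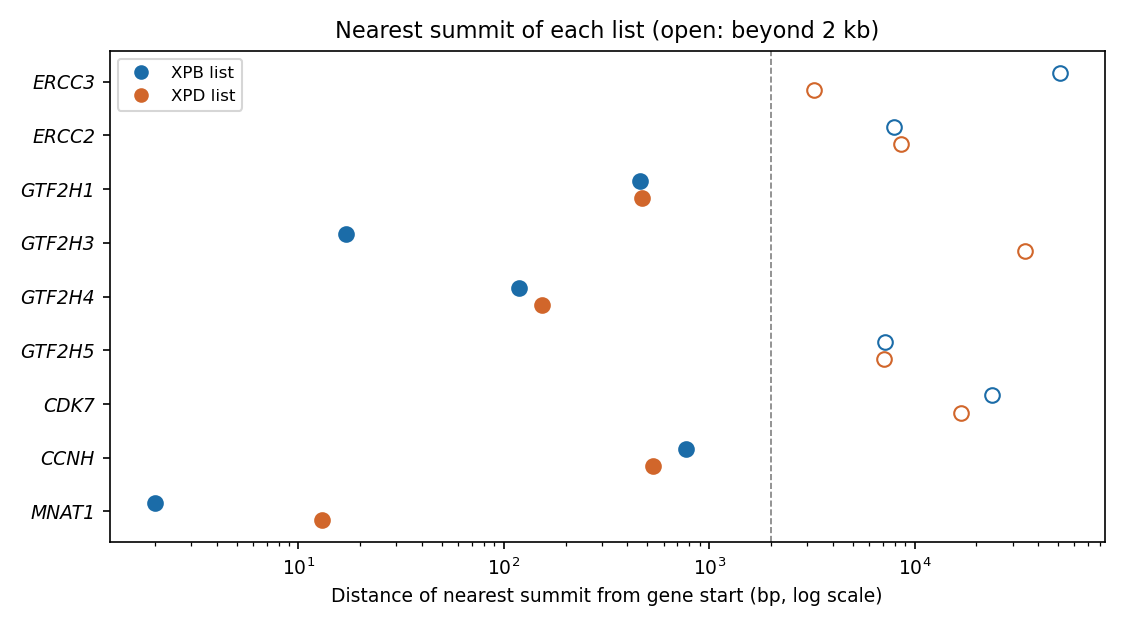
Distance from each gene start to the nearest XPB (blue) and XPD (orange) summit, on a log axis in bp; filled points lie within 2 kb (dashed line) and open points beyond it. Summits in the window run from 2 to 768 bp for XPB and from 13 to 530 bp for XPD, and the nearest summits outside it start at 3252 bp, for XPD at ERCC3.

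The 2 kb limit sorts the genes by distance, so the values on each side of it are a description. XPB summits inside it were a median of 118 bp from the start (range 2 to 768, 5 genes), and those of the other 4 genes were 7186 to 50776 bp away. XPD summits inside it were a median of 312.5 bp away (13 to 530, 4 genes), and those of the other 5 genes were 3252 to 34574 bp away. Of the near summits, 4 of 5 XPB and 2 of 4 XPD lay upstream of the start. With fragments of 400 to 700 bp, the side is not resolved at MNAT1 and GTF2H3, whose near summits lay 2 to 17 bp from the start. It is uncertain also at GTF2H4, with summits 118 and 154 bp away in peaks that covered the start. The counts by side are therefore approximate. The peak interval covered the start at 4 of 5 genes for XPB and 3 of 4 for XPD, with GTF2H1 the exception in both lists.

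The member peaks ranked high in the XPB list and less evenly in the XPD list. Peaks at the starts of other genes were not compared, so these ranks are not shown to be particular to TFIIH genes. All 5 XPB peaks scored above the list median of 189.4, from 303.1 at CCNH to 928.7 at MNAT1. Their median place was at 90.1% of the list by score (86.1 to 99.3), where 100% is the highest score. The XPB summits had 15 to 45 fragments, against a list median of 11. In the XPD list, 3 of 4 peaks scored above the median of 185.1, and CCNH was below it. The median place was at 85.7% (8.65 to 97.1). By height only 2 of the 4 XPD summits, at GTF2H1 and MNAT1, exceeded the list median of 13 fragments, and the median place by height was 58.8%. Order by height was MNAT1, GTF2H1, GTF2H3, then GTF2H4 and CCNH with equal heights for XPB, and MNAT1, GTF2H1, GTF2H4, CCNH for XPD. Neighbours in either order had overlapping counting intervals, and the MNAT1 interval in each list lay above those of GTF2H4 and CCNH.

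**Figure D3:**
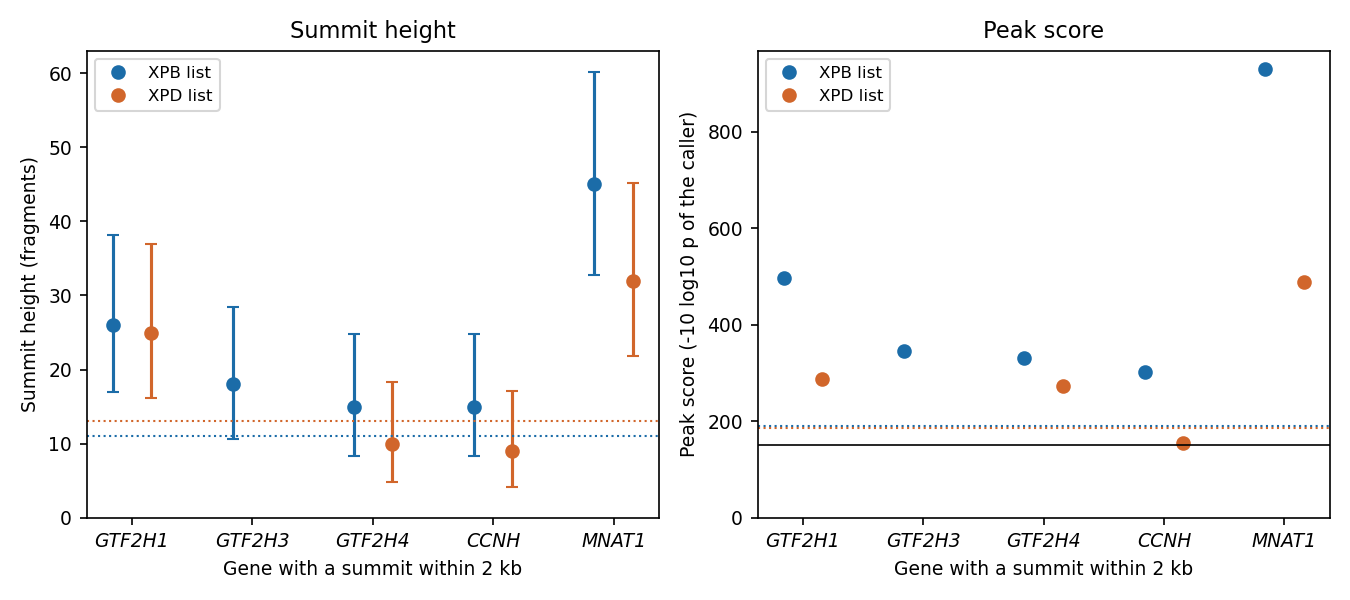
Summit height in fragments with exact Poisson 95% intervals (left) and peak score (right) at the 5 genes with a summit within 2 kb; XPB is blue and XPD orange, dotted lines are the list medians (11 and 13 fragments, scores 189.4 and 185.1), and the solid line is the lowest listed score, 150. MNAT1 is highest in both panels, and the XPD peak at CCNH, with 9 fragments and a score of 154.2, sits just above the lowest score.

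At the 4 genes with both summits, the peaks of the lists overlapped in every case, which is made more likely by both summits lying within 2 kb of 1 start. Over all peaks, 26.6% of XPB peaks overlapped an XPD peak and 38.7% of XPD peaks overlapped an XPB peak. Among the XPB peaks closest in score, the share was 95.9% for MNAT1, 85.2% for GTF2H1, 59.1% for GTF2H4 and 51.1% for CCNH. Among the XPD peaks closest in score, these shares were 95.3%, 66.0%, 61.4% and 20.8%. Overlap of the lists at these genes is therefore not shown to be unusual for peaks of such scores. The summits were 11 bp apart at GTF2H1, 15 bp at MNAT1, 36 bp at GTF2H4 and 238 bp at CCNH. Over the 5536 pairs of peaks in the genome that were each other's largest overlap, the median gap was 97.5 bp. CCNH was thus the only one of the 4 with a gap above that median, and 67.3% of all pairs had a gap as small or smaller. Fragments of 400 to 700 bp were selected for sequencing, which limits how finely these gaps can be read.

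Because depth is unknown, the ratio of XPD to XPB height at these genes was set beside the median log2 ratio of all pairs, 0.11, and not beside 0. Relative to that median the log2 ratio was -0.16 at GTF2H1 (exact binomial 95% counting interval -1.02 to 0.69), -0.60 at MNAT1 (-1.30 to 0.09), -0.69 at GTF2H4 (-2.01 to 0.56) and -0.84 at CCNH (-2.22 to 0.44). At each of the 4 genes the counting interval included the median of all pairs. With 1 library each, these values describe the libraries and do not compare the antibodies.

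The promoters were then compared by sequence. All 9 genes had a RefSeq promoter, running from 250 bases before the start to 50 after it, and the first listed start was used for CDK7. None of the 9 held TATAAA, which 11.5% of the 35116 promoters in the table held, or the palindromic NRF1 motif, held by 1.24%. The GC box was present in 6 of 9 (45.0% of all promoters) and CCAAT in 2 of 9, ERCC2 and GTF2H4 (34.6%). The ETS motif was present in ERCC3, GTF2H1 and GTF2H3 (4.14% of all promoters); in GTF2H3 it lies on the far side of the EIF2B1 start and, like the GC box there, outside the printed stretch. A G-quadruplex pattern was found in GTF2H1 alone of the 9, and in 8778 of the 35116 promoters. These patterns can overlap one another, and a match does not show that a factor was bound.

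Base composition varied widely among genes with and without a summit. The promoter with the tallest summits, MNAT1, had the lowest GC content of the 9, 49.7%, the fewest CpG dinucleotides, 13, and a match to none of the 6 motifs. The promoter with the highest GC content, GTF2H5, at 73.7% with 35 CpG, had no summit in the window. The median GC content was 60.3% for the 5 genes with a summit and 59.8% for the 4 without, against 58.7% for all promoters in the table. Median CpG numbers were 28, 24.5 and 14. An oppositely directed gene start within 1 kb upstream was present at 3 of the 5 genes with a summit (GTF2H1, GTF2H3 and CCNH) and at 1 of the 4 without (GTF2H5). Over all 27326 gene entries of the table, by first listed start, it was present at 18.4%. The 1 kb limit was chosen after the data were seen, and with 5 and 4 genes the groups are not told apart.

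The wider surroundings were examined last. Within 100 kb on either side of the start, ERCC2 had 11 XPB and 9 XPD summits, the most of the 9 genes, and each other gene had 1 to 6 XPB and 1 to 4 XPD summits. The mean density of the lists corresponds to 1.44 XPB and 0.977 XPD summits in 200 kb. That mean holds all kinds of sequence, and no density of chromosome 19 alone was used here. The ERCC2 counts are therefore not shown to be particular to that gene. All 11 XPB summits near ERCC2 lay upstream of it, whereas 5 of the 9 XPD summits lay upstream and 4 downstream. Of those 11 XPB peaks, 3 overlapped an XPD peak. The tallest site near ERCC2 was 53796 bp upstream for XPB, with 35 fragments and a score of 884.9, and 53778 bp upstream for XPD, with 29 fragments and a score of 346.1. This site was chosen after its values were seen, and its gene is not named because no annotation of this build was used.

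**Figure D4:**
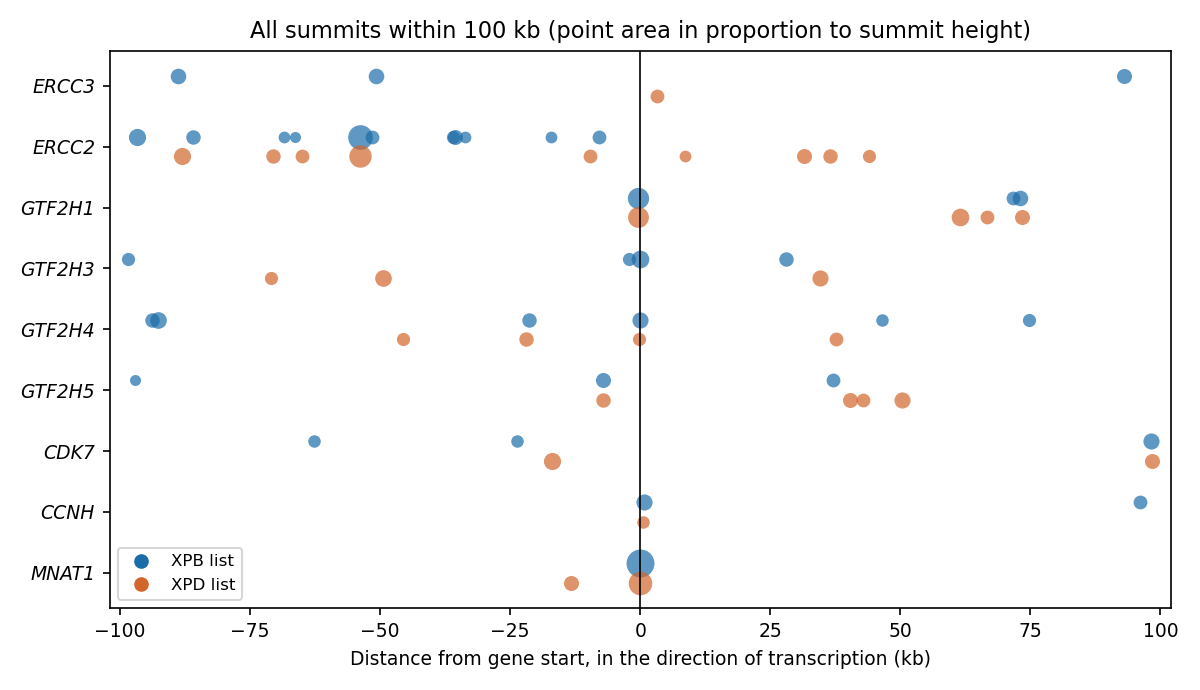
All XPB (blue) and XPD (orange) summits within 100 kb of each gene start; the x axis is the distance from the start in kb, positive in the direction of transcription, and the area of a point is in proportion to the summit height. ERCC2 has 11 XPB summits, all upstream, and 9 XPD summits, and the tall points at the starts of MNAT1 and GTF2H1 have 45 and 26 fragments for XPB.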

How the data were processed

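Per the submitters' processing notes, the alignment used Bowtie 0.12.7 and hg19, and MACS 1.4 called the peaks; whether the input served as control is not given in the sources used here. The authors deposited 1 peak list and 1 summit list per ChIP library, without pooling. By the usual MACS layout, the deposited score is the log10 p-value multiplied by -10 (lowest listed value 150, ceiling 3100), and the deposited summit signal is the pileup height, whole fragments not scaled to depth. The input library was not analysed here. Positions were made 1-based. The nearest summit of each list was found for each of 9 gene starts, with distances signed by the strand in RefSeq. All 9 genes are described; gene neighbours come from RefSeq (GRCh38.p14) by name only. Peaks overlapped when they shared at least 1 bp. The members and lists were chosen with earlier results of these data known. Sequences of MNAT1 and CCNH were printed as the genes with the most and least central summits, and 3 others were added after their values were seen. Functions were tested on simulated lists. Python 3.11.15, numpy 2.4.6, pandas 2.3.3, scipy 1.17.1 and matplotlib 3.10.9 were used.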

Additional observations from a re-analysis of the deposited data

How the results depend on the processing

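Of 29 alternatives, 24 stayed close to the reported value (counts within 1.5 times, the ratio within its counting interval, distances equal, and median places within the exact binomial interval of that share of the list, 89.7 to 90.5% for XPB and 85.1 to 86.3% for XPD) and 5 moved. Taking the highest-scoring peak in the window could change nothing, because no window held more than 1 peak of a list. Setting the ratio beside the median of all pairs only lowers it by a fixed 0.11. That is small against the counting intervals at these genes, so this alternative could not have moved either. The limit of 1.5 times also passes a change from 4 genes to 3 or 5, so the 24 say little about robustness. With a score of at least 300 the genes with an XPD summit fell from 4 to 1. Those with summits of both lists also fell from 4 to 1, in both cases leaving MNAT1. The 5 XPB genes were kept, but a fixed score does not cut the lists at the same place. Placed by summit height, the median place of the member peaks was 91.9% for XPB and 58.8% for XPD. That binomial interval reflects the length of the list and not the error of the heights. With summits counted up to 5 kb, ERCC3 joined the XPD genes and their median distance was 471 bp. With a limit of 500 bp CCNH was lost from both lists. No paired analysis was possible because each antibody has 1 library. Unknown read depth and the score minimum of 150 mean that absence from a list cannot be read as absence of binding.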
